A study of Mus musculus with 26 samples.

Results

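The data concern 41 DNA replication genes in RNA of mouse pancreatic islets. They were taken by symbol from a list of DNA replication genes, keeping those present among the 13641 genes of the deposited table. The rule held no measured value, but the list was drawn up with earlier results of these data known. Counts of members called therefore describe this list and are no independent test of it. They fall into 9 groups by role. The MCM group has 7 genes, origin loading 4, the CMG helicase cofactors 5, the polymerases with their primase 8, the sliding clamp with its loader 6 and replication protein A 3. Okazaki fragment processing has 2 genes, nucleotide supply 4 and chromatin assembly 2.

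The islets came from C57BL/6J mice, an inbred laboratory strain, with no genetic change or treatment given in the labels. Neonatal islets were taken at postnatal day 5 and sorted into small and large ones, and adult islets were taken at 2.5 months. Each library was made from a pool of islets picked by hand, with ribosomal RNA removed, and the number of animals behind a pool is not given in the sources used here. There were 9 small, 11 large and 6 adult libraries in 3 batches named by the labels. Batches 1, 2 and 3 had 4, 3 and 2 of the small libraries, 4, 4 and 3 of the large ones and 0, 4 and 2 of the adult ones. Nothing says whether libraries of a group came from separate animals, so the p-values measure the spread between these libraries, which may be partly technical. The depth recovered from the values ran from 15.5 to 32.0 M fragments per library. The islet label was checked against hormone cell genes: 10 β cell markers summed to 90198 to 180996 FPKM per library, where FPKM is fragments per kilobase of gene per M fragments. Large 14, a large islet library of batch 3, stood apart from the others in ways described with the size comparison, and the counts that lean on it are given with and without it.

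DNA replication starts at origins, which are marked by the origin recognition complex. Cdc6 and Cdt1 load the ring of Mcm2 to Mcm7 there, and Cdc45 and the GINS complex turn that ring into an active helicase. Polymerase α with primase starts each strand, polymerases ε and δ extend it on the PCNA clamp, and flap removal and ligation join the lagging strand. Many of these genes are transcribed as cells enter S phase, through E2F factors that the retinoblastoma family otherwise restrains. In mice, β cells divide often around birth and rarely in adult life, as general background.

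All 41 genes passed the filter on low values, which asked for 1 FPKM or more in 6 or more libraries and kept 13402 genes, and no member was at 0 in any library. All 41 rose in neonatal against adult islets, by limma on log2(FPKM + 1) with Benjamini-Hochberg adjustment over the 13402 genes and a threshold of 0.05. Of all genes kept, 46.8% were called higher in this comparison. The members' median log2 change was 1.53, from 0.24 for Rfc1 to 2.73 for Tk1, beside a median of 0.16 over all genes. All 41 were also called higher in small islets alone (43.1% of all genes) and in large islets alone (46.9% of all genes), comparisons that share their adult libraries. The pseudocount of 1 shrinks the change of low genes, and on the recovered fragment counts the members' median change was 1.99.

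The members' FPKM added up to 415 to 620.1 in the small, 495 to 743 in the large and 185 to 208 in the adult libraries. Every neonatal sum thus lay above every adult one. For 37 members every neonatal library was above every adult library, which held for 20.2% of all genes, and the 4 members whose groups overlapped were Gins4, Rfc1, Rpa1 and Rpa3. Within batch 2 all 41 had every neonatal library above every adult one (44.2% of all genes), and within batch 3 all but Rfc1 did (41.8% of all genes). Mean adult levels were under 1 FPKM for 11 members, and mean neonatal levels for none.

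**Figure D1:**
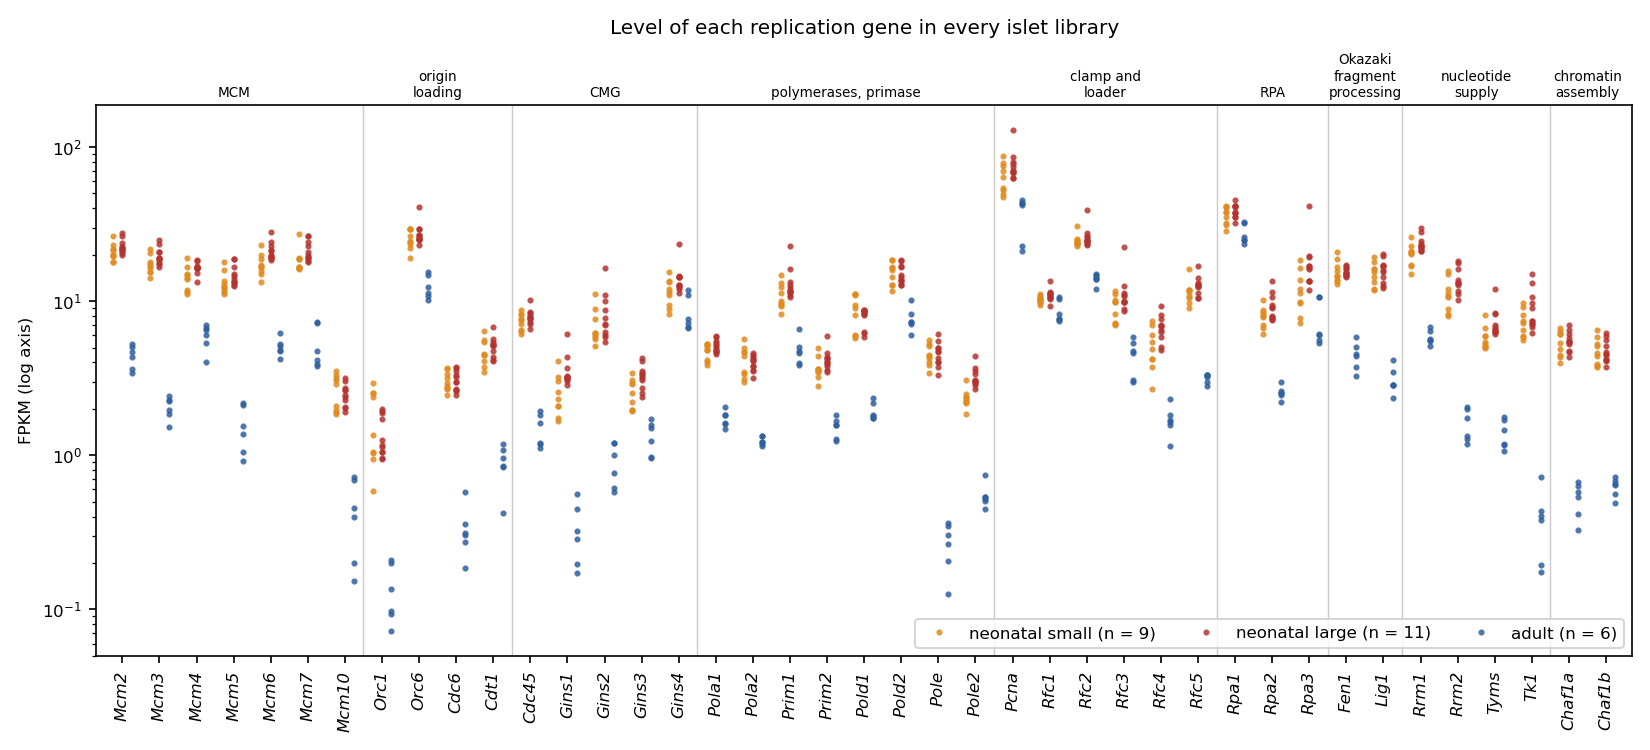
FPKM of each of the 41 genes on a log axis in every library, with 9 small (orange), 11 large (red) and 6 adult (blue) libraries as points, ordered by role. The blue points lie below the others for 37 genes, with the widest gaps at Pole, Tk1 and Chaf1a, and reach the neonatal range at Gins4, Rfc1, Rpa1 and Rpa3.

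In these bulk samples, fewer cells of a type and less RNA of a gene per cell cannot be told apart. Markers of other islet cells moved with age as well, where 46.8% of all genes were called higher and 2824 of 13402 lower. All 10 endothelial markers were called higher in neonatal islets (summed 408 to 655 FPKM in neonatal and 159 to 203 in adult libraries), and so were 9 of 10 mesenchymal markers (202 to 1280.2 and 75.9 to 139.8 FPKM). Of 3 erythroid markers tested all 3 were higher (summed 229.7 to 883 FPKM in neonatal and 6.87 to 82.0 FPKM in adult libraries). Of 7 duct markers 5 were higher and none lower (391 to 920.2 and 265 to 1030.5 FPKM). Of 8 macrophage markers 2 were higher and 1 lower (43.1 to 91.5 and 57.7 to 80.4 FPKM), and of 6 Schwann cell markers 2 went each way (28.7 to 42.4 and 28.6 to 42.9 FPKM). The β cell list had 2 of 10 genes higher and 5 lower (90198 to 143076 and 128852 to 180996 FPKM), and the α cell list had 4 of 7 higher and 3 lower (5598 to 27097 and 16642 to 33080.0 FPKM). Of 8 acinar markers (18.3 to 3607 and 10.1 to 3945 FPKM) and the 1 lymphocyte marker tested (2 in the table, 3.28 to 10.1 and 3.19 to 10.6 FPKM) none was called. No marker in the table was at 0 in all libraries. The part of these cell types in the changes of the replication genes was not tested.

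The promoters of the members were searched for letters that E2F factors bind, since members moved together. The RefSeq table of GRCm38.p6 promoters, 250 bases before to 50 after each start site, held 39 windows for 34 members. The E2F letters searched were TTTCCCGC, TTTGGCGC, TTTCGCGC and TTTGCCGC on both strands, and their matches may overlap. They were found in 13 of the 39 windows (33.3%), in 3.84% of the 13243 windows of genes tested here and in 2.26% of all 32851 windows. The 13 members that hold them are Mcm3, Mcm5, Mcm6, Mcm7, Cdc6, Cdt1, Orc1, Gins3, Pola1, Pold1, Pole2, Rfc3 and Lig1. The median log2 change with age was 1.57 for these 13 and 1.53 for the 21 others matched. The letters CCAAT, on both strands, were in 59.0% of member windows and 37.2% of windows of genes tested. The letters TTTGAA, known as the CHR element of cell cycle genes, were in 12.8% and 11.6%.

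The 160 bases before the start site are shown for 4 members that stand for what the search found, 5′ to 3′ on the gene's strand, with the E2F letters in capitals. Mcm5 (chr8:75109349-75109508, plus strand) has overlapping matches, Mcm6 (chr1:128359706-128359865, minus strand) has an overlapping pair and a further match nearer the start, and Cdc6 (chr11:98907991-98908150, plus strand) has 1 match. Rfc1 (chr5:65335640-65335799, minus strand), the member with the smallest age change, has none in this window, which says nothing about the factor.
Mcm5: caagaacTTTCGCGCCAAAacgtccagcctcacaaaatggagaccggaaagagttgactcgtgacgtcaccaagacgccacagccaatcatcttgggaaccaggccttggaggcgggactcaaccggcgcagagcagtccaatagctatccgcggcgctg
Mcm6: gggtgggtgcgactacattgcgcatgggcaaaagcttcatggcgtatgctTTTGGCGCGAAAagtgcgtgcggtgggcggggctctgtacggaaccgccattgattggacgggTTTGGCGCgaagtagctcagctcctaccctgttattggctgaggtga
Cdc6: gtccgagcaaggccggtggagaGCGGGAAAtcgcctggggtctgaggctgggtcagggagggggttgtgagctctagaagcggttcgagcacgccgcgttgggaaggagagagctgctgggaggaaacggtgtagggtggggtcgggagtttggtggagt
Rfc1: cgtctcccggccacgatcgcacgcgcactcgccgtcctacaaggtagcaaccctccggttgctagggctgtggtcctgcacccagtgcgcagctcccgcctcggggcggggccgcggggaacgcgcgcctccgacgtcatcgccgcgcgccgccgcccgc

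The MCM genes encode the helicase ring and its partner Mcm10, and all 7 rose with a median log2 change of 1.82. Mcm3 (chr1:20802968-20820312, GENCODE M21 on GRCm38 as for the other genes) had the largest log2(FPKM + 1) change. Mcm3 stood at 14.1 to 21.9 FPKM (median 17.0) in the small, 16.5 to 24.8 FPKM (median 18.9) in the large and 1.53 to 2.44 FPKM (median 2.10) in the adult libraries. Its neonatal libraries were all above its adult ones, 8.95-fold by the ratio of means in batch 2 and 9.94-fold in batch 3, and the log2 change was 2.70 ± 0.084 (SE, adjusted p = 1.96e-19). Mcm5, another ring subunit, was close behind at 2.61 ± 0.098 (SE, adjusted p = 5.85e-18), and its promoter carries the overlapping E2F letters shown above. On the recovered counts Mcm5 changed by 3.27 ± 0.14 (SE) and Mcm3 by 3.19 ± 0.12 (SE). Mcm10 (chr2:4989714-5012791), which helps to activate the loaded helicase, had the smallest log2(FPKM + 1) change of the group. Mcm10 stood at 1.84 to 3.51 FPKM (median 2.92) in the small, 1.89 to 3.16 FPKM (median 2.45) in the large and 0.152 to 0.720 FPKM (median 0.425) in the adult libraries. The adult values are low, so the change of 1.21 ± 0.10 (SE, adjusted p = 5.56e-11) on this scale corresponds to 2.43 ± 0.22 (SE) on the recovered counts.

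The 6 ring subunits are present in equal numbers in the assembled helicase, and their transcript levels, which FPKM sets per length, were closer to each other in neonatal than in adult islets. Means in small islets ran from 13.3 ± 2.26 FPKM (SD, n = 9) for Mcm5 to 20.9 ± 2.67 FPKM for Mcm2, a ratio of 1.57. In large islets the order was the same, Mcm2, Mcm7, Mcm6, Mcm3, Mcm4 and Mcm5, with a ratio of 1.53. In adult islets, with batches 2 and 3 together, Mcm4 was highest at 5.95 ± 1.11 FPKM (SD, n = 6) and Mcm5 lowest at 1.53 ± 0.525 FPKM, a ratio of 3.90. The adult order differed by batch, with Mcm4 highest in batch 2 (mean 6.58 FPKM) and Mcm7 in batch 3 (7.30 FPKM, Mcm4 at 4.69 FPKM). Mcm5 was lowest in both, at 1.37 and 1.83 FPKM. Whether neighbours in the adult order differ was not tested, and the ranges of Mcm4, Mcm7, Mcm6 and Mcm2 overlapped across adult libraries. Mcm3 was above Mcm5 in each adult library (means 2.05 ± 0.333 FPKM and 1.53 ± 0.525 FPKM). The difference in ratio between ages was not tested.

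**Figure D2:**
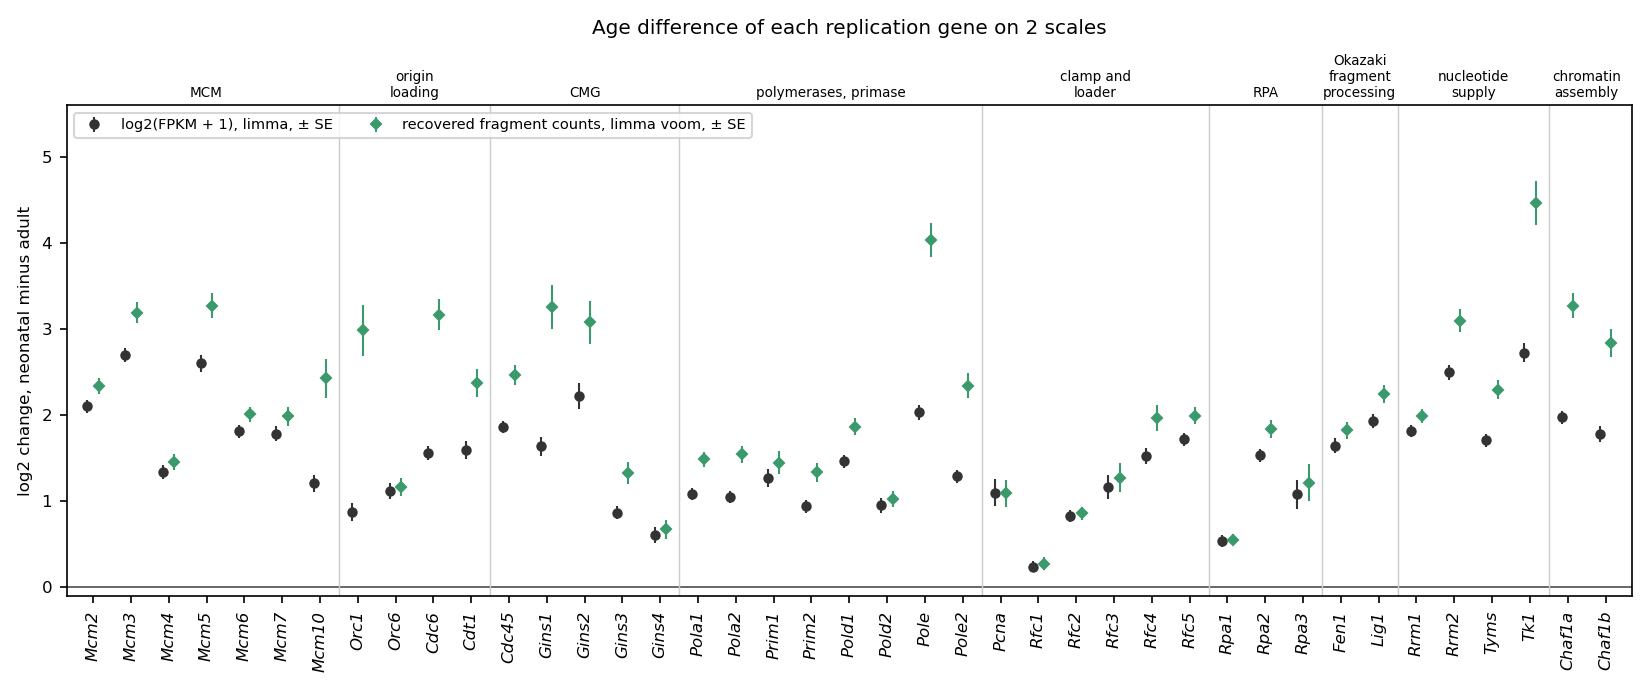
Neonatal minus adult log2 change (± SE) of each gene, on log2(FPKM + 1) in limma (black circles) and on recovered fragment counts in limma voom (green diamonds), with genes ordered by role. All 41 genes lie above 0 on both scales, and the scales part most for genes with low adult levels such as Tk1, Pole and Orc1.

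The origin loading genes all rose, with a median log2 change of 1.34. Cdt1 (chr8:122568015-122573554), a loader of the helicase, had the largest log2(FPKM + 1) change in the group. On the recovered counts Cdc6 (3.17) and Orc1 (2.99) changed more than Cdt1 (2.38). Cdt1 stood at 3.49 to 6.44 FPKM (median 4.50) in the small, 4.11 to 6.75 FPKM (median 5.20) in the large and 0.420 to 1.18 FPKM (median 0.903) in the adult libraries. Every neonatal value was above every adult one and the log2 change was 1.60 ± 0.10 (SE, adjusted p = 1.68e-13). Orc1 (chr4:108579423-108614833), the subunit of the origin recognition complex that is made and broken down with the cell cycle, had the lowest mean level in every group. Orc1 stood at 0.587 to 2.92 FPKM (median 1.36) in the small, 0.942 to 1.99 FPKM (median 1.17) in the large and 0.0724 to 0.210 FPKM (median 0.116) in the adult libraries. Those adult values rest on 4 to 17 fragments per library. The log2(FPKM + 1) change was 0.88 ± 0.10 (SE, adjusted p = 2.78e-08), and the recovered counts gave 2.99 ± 0.29 (SE). Cdc6, the other loader, rose by 1.57 ± 0.080 (SE, adjusted p = 2.70e-15), and Orc6, a small subunit of the recognition complex, by 1.12 ± 0.094 (SE, adjusted p = 5.71e-11) from a higher adult mean of 12.5 ± 2.23 FPKM (SD, n = 6).

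Of the other genes of licensing and origin firing listed beside the members, 15 of 19 rose and 2 fell, with a median of 1.00. Of all genes, 46.8% were called higher. The 2 that fell were Orc4 and Orc5, core subunits of the recognition complex, and Orc4 went from 6.53 ± 0.676 FPKM in adult to 4.30 ± 1.09 FPKM in neonatal islets (log2 change -0.47, SE 0.11, adjusted p = 0.000710). Orc5 went from 10.4 ± 0.370 FPKM in adult to 7.66 ± 1.87 FPKM in neonatal islets (log2 change -0.24, SE 0.081, adjusted p = 0.0122), with -0.11 within batch 2 and -0.44 within batch 3, and was not called in large islets alone (-0.12, adjusted p = 0.240). Orc2 (log2 change -0.078, SE 0.067, adjusted p = 0.303) and Orc3 (log2 change -0.15, SE 0.11, adjusted p = 0.221) did not pass the test. Of the 6 subunits of the complex, the members Orc1 and Orc6 were thus called higher and the 4 others were not. Orc5 was added to the named genes after its values were seen, with Orc2 and Orc3, to complete the complex. The largest rise in this list was that of Ccna2, cyclin A2, which acts with Cdk2 in S phase and later (from 1.16 ± 0.250 FPKM in adult to 22.2 ± 4.82 FPKM in neonatal islets, log2 change 3.52, SE 0.093, adjusted p = 1.47e-20).

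Cdc45 and the GINS genes, whose products join the MCM ring to make the CMG helicase, all rose, with a median of 1.64. Gins2 (chr8:120578633-120589304) changed most on log2(FPKM + 1), while on the recovered counts Gins1 (3.26) changed more than Gins2 (3.08). Gins2 stood at 5.11 to 11.1 FPKM (median 6.17) in the small, 5.43 to 16.3 FPKM (median 7.15) in the large and 0.577 to 1.20 FPKM (median 0.886) in the adult libraries. The groups were far apart, 6.33-fold by means in batch 2 and 18.5-fold in batch 3, and the log2 change was 2.22 ± 0.15 (SE, adjusted p = 7.36e-13). The adult values of Gins2 rest on 11 to 34 fragments per library, and its batch 3 neonatal mean includes large 14 at 16.3 FPKM. Gins4 (chr8:23226616-23237659) changed least. Gins4 stood at 8.31 to 15.4 FPKM (median 11.4) in the small, 11.3 to 23.6 FPKM (median 12.7) in the large and 6.70 to 11.7 FPKM (median 7.43) in the adult libraries. The adult libraries of batch 3, at 11.7 and 10.9 FPKM, reached into the neonatal range, whereas those of batch 2, at 6.70 to 7.68 FPKM, did not. Its log2 change was 0.61 ± 0.092 (SE, adjusted p = 1.84e-06) over all batches and 0.43 in batch 3 alone (adjusted p = 0.107). The mean adult levels of the 4 GINS genes, whose products form 1 complex, ran from 0.332 ± 0.151 FPKM (SD, n = 6) for Gins1 to 8.50 ± 2.22 FPKM for Gins4.

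The polymerase and primase genes all rose, with a median of 1.18, and none overlapped between ages. Pole (chr5:110286306-110337474), the catalytic subunit of the leading strand polymerase ε, changed most. Pole stood at 3.41 to 5.56 FPKM (median 4.39) in the small, 3.30 to 6.17 FPKM (median 4.67) in the large and 0.126 to 0.365 FPKM (median 0.283) in the adult libraries. The mean was 17.4-fold higher in neonatal islets in batch 2 and 13.6-fold higher in batch 3, and the log2 change was 2.04 ± 0.085 (SE, adjusted p = 4.69e-17). Pole2, its partner subunit, rose by 1.29 ± 0.074 (SE, adjusted p = 2.50e-14). Prim2 (chr1:33453810-33669795), the large primase subunit, changed least on log2(FPKM + 1). On the recovered counts Pold2 (1.03) changed less than Prim2 (1.34). Prim2 stood at 2.79 to 4.95 FPKM (median 3.56) in the small, 3.49 to 5.98 FPKM (median 4.01) in the large and 1.24 to 1.81 FPKM (median 1.57) in the adult libraries. The groups were still apart and the log2 change was 0.94 ± 0.076 (SE, adjusted p = 3.00e-11). The catalytic subunits of polymerases α and δ, Pola1 and Pold1, rose by 1.09 and 1.46, and their partners Pola2 and Pold2 by 1.05 and 0.95, all past the threshold. Prim1, the catalytic primase subunit, rose by 1.27.

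Of 23 other fork and polymerase genes 20 rose and none fell, with a median of 0.78, beside 46.8% of all genes called higher. Top2a, the topoisomerase that separates daughter DNA, rose most (from 2.29 ± 0.700 FPKM in adult to 39.8 ± 6.06 FPKM in neonatal islets, log2 change 3.72, SE 0.10, adjusted p = 4.10e-20). Top1, the topoisomerase that relaxes DNA ahead of the fork and during transcription, had the smallest change (from 22.3 ± 1.75 FPKM in adult to 24.5 ± 3.33 FPKM in neonatal islets, log2 change 0.021, SE 0.048, adjusted p = 0.712), and was not called.

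The clamp and clamp loader held both large and small changes. Rfc5 (chr5:117378103-117389047), a small subunit of the loader, changed most. Rfc5 stood at 9.01 to 16.2 FPKM (median 11.5) in the small, 10.4 to 16.8 FPKM (median 12.6) in the large and 2.83 to 3.31 FPKM (median 3.25) in the adult libraries. Adult libraries of both batches fell in a narrow range, well below the neonatal ones, and the log2 change was 1.72 ± 0.073 (SE, adjusted p = 6.70e-17). Rfc1 (chr5:65261850-65335670), the large subunit, changed least of all 41 members. Rfc1 stood at 9.40 to 11.0 FPKM (median 10.2) in the small, 9.35 to 13.4 FPKM (median 11.0) in the large and 7.42 to 10.7 FPKM (median 7.96) in the adult libraries. Its adult libraries stood at 7.42 to 8.25 FPKM in batch 2 but at 10.7 and 10.4 FPKM in batch 3, inside the neonatal range. Over all batches the log2 change was 0.24 ± 0.068 (SE, adjusted p = 0.00283), and in batch 3 alone it was -0.089 (adjusted p = 0.461), the sole member of 41 with a negative value there. Rescaling the libraries by the median of ratios also ended that call (0.057, adjusted p = 0.437). Rfc2, Rfc3 and Rfc4 rose by 0.83, 1.16 and 1.53.

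Pcna (chr2:132249162-132253314), the sliding clamp that also serves DNA repair, had the highest mean level of the 41 genes in every group. Pcna stood at 47.6 to 87.4 FPKM (median 63.7) in the small, 63.0 to 128 FPKM (median 70.3) in the large and 21.3 to 45.6 FPKM (median 42.6) in the adult libraries. The 2 adult libraries of batch 3 were at 22.7 and 21.3 FPKM and the 4 of batch 2 at 41.9 to 45.6 FPKM, a gap wider than the spread within either batch. The log2 change with age was 1.10 ± 0.16 (SE, adjusted p = 7.60e-07). Within batch 2 it was 0.70 and within batch 3 1.84. Pcna has a pseudogene copy in the mouse, and how reads shared with it were counted is not given in the sources used here. Without Pcna the summed member level was still 367 to 615 FPKM in neonatal and 141 to 181 FPKM in adult libraries.

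Replication protein A coats single-stranded DNA in replication and in repair, and its 3 genes rose with a median of 1.08. Rpa2 (chr4:132768332-132778752), the middle subunit, changed most. Rpa2 stood at 6.08 to 10.2 FPKM (median 7.95) in the small, 7.56 to 13.5 FPKM (median 9.08) in the large and 2.22 to 3.01 FPKM (median 2.54) in the adult libraries. The ages did not overlap and the log2 change was 1.53 ± 0.075 (SE, adjusted p = 1.11e-15). Rpa1 (chr11:75298166-75348324), the large subunit, changed least. Rpa1 stood at 28.3 to 41.4 FPKM (median 37.6) in the small, 32.3 to 45.6 FPKM (median 37.7) in the large and 23.6 to 32.5 FPKM (median 25.5) in the adult libraries. The adult libraries of batch 3, at 32.5 and 32.1 FPKM, lay above the lowest neonatal values, and the change of 0.54 ± 0.064 (SE, adjusted p = 4.37e-08) over all batches was 0.26 in batch 3 alone (adjusted p = 0.0618). Rpa3, the small subunit, rose by 1.08 ± 0.17 (SE, adjusted p = 3.25e-06), with 1 library far from the rest, large 14 at 41.6 FPKM beside a next highest neonatal value of 19.7. Its change was 1.39 within batch 2 and 0.56 within batch 3, where it was not called (adjusted p = 0.253).

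Both genes of Okazaki fragment processing rose. Lig1 (chr7:13277283-13311433), the ligase that seals the fragments, had the larger change. Lig1 stood at 11.8 to 19.2 FPKM (median 15.5) in the small, 12.1 to 20.3 FPKM (median 16.0) in the large and 2.34 to 4.14 FPKM (median 2.86) in the adult libraries. The log2 change was 1.94 ± 0.082 (SE, adjusted p = 5.09e-17), with no overlap of ages. Fen1 (chr19:10199132-10204169), the flap endonuclease, changed by 1.65 ± 0.088 (SE, adjusted p = 6.34e-15). Fen1 stood at 12.8 to 20.7 FPKM (median 14.5) in the small, 14.3 to 17.2 FPKM (median 15.1) in the large and 3.27 to 5.82 FPKM (median 4.46) in the adult libraries. Over all batches small and large islets had nearly the same mean of Fen1, 15.7 ± 2.63 FPKM (SD, n = 9) and 15.5 ± 1.00 FPKM (SD, n = 11). Within batches 1, 2 and 3 the log2 difference, small minus large, was -0.089, -0.058 and 0.29, the last with 2 small libraries.

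The nucleotide supply genes had the highest median log2(FPKM + 1) change of the 9 groups, 2.16. On the recovered counts the median was 3.06 for chromatin assembly, 2.70 for nucleotide supply and 2.68 for origin loading. Tk1 (chr11:117815526-117826092), the cytosolic thymidine kinase whose level follows S phase, changed most of all 41 members. Tk1 stood at 5.59 to 9.73 FPKM (median 7.17) in the small, 6.20 to 15.0 FPKM (median 7.46) in the large and 0.175 to 0.720 FPKM (median 0.391) in the adult libraries. The ratio of means was 24.9 in batch 2 and 19.3 in batch 3, with adult values resting on 6 to 17 fragments per library, and the log2 change was 2.73 ± 0.11 (SE, adjusted p = 1.27e-17). Rrm2, the S phase subunit of ribonucleotide reductase, rose by 2.50 ± 0.088 (SE, adjusted p = 1.84e-18), and Rrm1, its large subunit, by 1.82 ± 0.070 (SE, adjusted p = 9.90e-18). Tyms (chr5:30058202-30073617), thymidylate synthase, had the smallest log2(FPKM + 1) change of these 4. On the recovered counts Rrm1 (1.99) changed less than Tyms (2.30). Tyms stood at 4.96 to 8.09 FPKM (median 5.42) in the small, 6.14 to 12.0 FPKM (median 6.59) in the large and 1.07 to 1.77 FPKM (median 1.32) in the adult libraries. Its ages were nonetheless apart, with a log2 change of 1.71 ± 0.075 (SE, adjusted p = 1.32e-16).

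Of 18 other nucleotide supply genes 13 rose and 2 fell, with a median of 0.48, beside 46.8% of all genes called higher. Dck, the deoxycytidine kinase of nucleoside salvage, rose most (from 3.07 ± 0.526 FPKM in adult to 8.96 ± 1.20 FPKM in neonatal islets, log2 change 1.37, SE 0.082, adjusted p = 7.48e-14). The 2 that fell were Tk2, the mitochondrial thymidine kinase (from 14.3 ± 1.58 FPKM in adult to 9.29 ± 0.824 FPKM in neonatal islets, log2 change -0.54, SE 0.058, adjusted p = 5.88e-09), and Rrm2b, the ribonucleotide reductase subunit used outside S phase (from 12.4 ± 2.68 FPKM in adult to 8.71 ± 1.84 FPKM in neonatal islets, log2 change -0.31, SE 0.10, adjusted p = 0.0102). The partners of these 2 among the members, Tk1 and Rrm2, were called in the other direction. Rrm2b was named after its values were seen, and its log2 difference was -0.036 in batch 2 and -0.75 in batch 3, and it was not called in large islets alone (-0.23, adjusted p = 0.0653).

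Both chromatin assembly genes, which encode subunits of the histone chaperone CAF-1, rose. Chaf1a (chr17:56040439-56072289) had the larger change. Chaf1a stood at 3.96 to 6.73 FPKM (median 5.32) in the small, 4.36 to 6.96 FPKM (median 5.46) in the large and 0.329 to 0.674 FPKM (median 0.554) in the adult libraries. The log2 change was 1.98 ± 0.077 (SE, adjusted p = 1.16e-17). Chaf1b (chr16:93883901-93906115) changed by 1.78 ± 0.093 (SE, adjusted p = 3.88e-15). Chaf1b stood at 3.72 to 6.48 FPKM (median 4.63) in the small, 3.76 to 6.25 FPKM (median 4.54) in the large and 0.487 to 0.721 FPKM (median 0.644) in the adult libraries. In adult islets both were under 1 FPKM in every library. All 14 other genes of replication-coupled chromatin rose, with a median of 1.30, beside 46.8% of all genes called higher. The largest rise was that of Uhrf1, which brings DNA methylation to new strands (from 0.738 ± 0.239 FPKM in adult to 13.7 ± 2.49 FPKM in neonatal islets, log2 change 3.06, SE 0.10, adjusted p = 6.45e-19). The smallest rise was that of Asf1a, a histone chaperone (from 6.14 ± 0.707 FPKM in adult to 7.29 ± 1.85 FPKM in neonatal islets, log2 change 0.36, SE 0.089, adjusted p = 0.000869).

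Among 18 genes of E2F factors, pocket proteins and their partners 10 rose and 1 fell, beside 46.8% of all genes called higher. Their median was 0.58, beside 0.16 over all genes. E2f8, a repressor whose own gene is an E2F target, rose most (from 0.366 ± 0.183 FPKM in adult to 5.32 ± 1.06 FPKM in neonatal islets, log2 change 2.18, SE 0.11, adjusted p = 2.78e-15). Lin52, a subunit of the DREAM and MuvB complexes, was the 1 that fell (from 9.87 ± 1.04 FPKM in adult to 7.22 ± 1.43 FPKM in neonatal islets, log2 change -0.23, SE 0.064, adjusted p = 0.00221).

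In the authors' deposited table, which sets small and large together against adult, 34 of the 41 members are marked UP and none DOWN, and 1728 genes of the table are marked UP. In the authors' deposited table the log2 fold changes of the members ran from 0.032 for Rfc1 to 4.24 for Tk1 with a median of 1.78. The 7 members without a mark in the authors' deposited table are Orc6, Gins4, Pold2, Pcna, Rfc1, Rfc2 and Rpa1, and all but Rfc1 have a positive change with an FDR under 0.05 there.

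Small islets were compared with large ones of the same age by the same fit. Of the 41 members 10 were called lower in small islets and none higher, where 12.7% of all genes were called lower. They were Mcm6, Gins1, Gins3, Gins4, Pole2, Rfc4, Rpa3, Rrm1, Rrm2 and Tyms. These differences were small beside those with age. The members' median log2 difference, small minus large, was -0.13 beside -0.039 for all genes. Of the members 35 of 41 were negative, and of all genes 8001 of 13402.

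Pole2 (chr12:69201773-69228195) had the smallest p of these. Its 9 small libraries stood at 1.84 to 3.08 FPKM (median 2.32) and its 11 large ones at 2.68 to 4.38 FPKM (median 3.04). The ranges overlapped through small 2 at 3.08 FPKM, and the log2 difference was -0.33 ± 0.066 (SE, adjusted p = 0.00211), with -0.26, -0.34 and -0.43 within batches 1, 2 and 3. Rfc4 (chr16:23113943-23127737), a subunit of the clamp loader, stood at 2.71 to 7.46 FPKM (median 4.90) in small and 4.84 to 9.29 FPKM (median 6.86) in large islets. The ranges overlapped, and within each batch small islets were lower on average (-0.48, -0.19 and -0.32). Over all batches the Rfc4 difference was -0.34 ± 0.086 (SE, adjusted p = 0.00991). Gins1 (chr2:150905400-150931280) stood at 1.66 to 4.08 FPKM (median 2.32) in small and 2.87 to 6.11 FPKM (median 3.20) in large islets. In batch 1 every small library was below every large one for Gins1, and the overall difference was -0.35 ± 0.097 (SE, adjusted p = 0.0168).

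Mcm6 (chr1:128331590-128359664), the ring subunit whose promoter holds 3 E2F matches above, stood at 13.3 to 23.2 FPKM (median 16.6) in small and 18.5 to 28.2 FPKM (median 19.8) in large islets. Its difference was -0.26 ± 0.068 (SE, adjusted p = 0.0128), and small islets were lower on average in each batch (-0.32, -0.23 and -0.20). Tyms, described above, differed by -0.26 ± 0.068 (SE, adjusted p = 0.0133), with -0.25, -0.27 and -0.24 within the batches. Rrm1 (chr7:102441695-102469771), the large reductase subunit, stood at 14.9 to 25.9 FPKM (median 20.4) in small and 21.1 to 29.6 FPKM (median 22.8) in large islets. It differed by -0.22 ± 0.063 (SE, adjusted p = 0.0208), less in batch 3 (-0.10) than in batches 1 and 2 (-0.32 and -0.18), and whether the batches differ was not tested. The largest difference in size was that of Rpa3, -0.50 ± 0.15 (SE, adjusted p = 0.0259), with -0.62, -0.23 and -0.71 by batch, the batch 3 value including large 14. Gins3, Gins4 and Rrm2 differed by -0.23 ± 0.069 (SE, adjusted p = 0.0241), -0.24 ± 0.082 (SE, adjusted p = 0.0435) and -0.25 ± 0.079 (SE, adjusted p = 0.0331).

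Members of the same complex were not called alike. In GINS, Gins1, Gins3 and Gins4 were called and Gins2 was not (log2 difference -0.17, SE 0.13, adjusted p = 0.371), and in polymerase ε, Pole2 was called and Pole was not (log2 difference -0.033, SE 0.076, adjusted p = 0.790). These are not shown to differ, since the difference between subunits was not tested. The highest positive value was that of Orc1, 0.094 ± 0.092 (SE, adjusted p = 0.488). The Orc1 value was 0.41 within batch 1, -0.015 within batch 2 and -0.27 within batch 3.

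**Figure D3:**
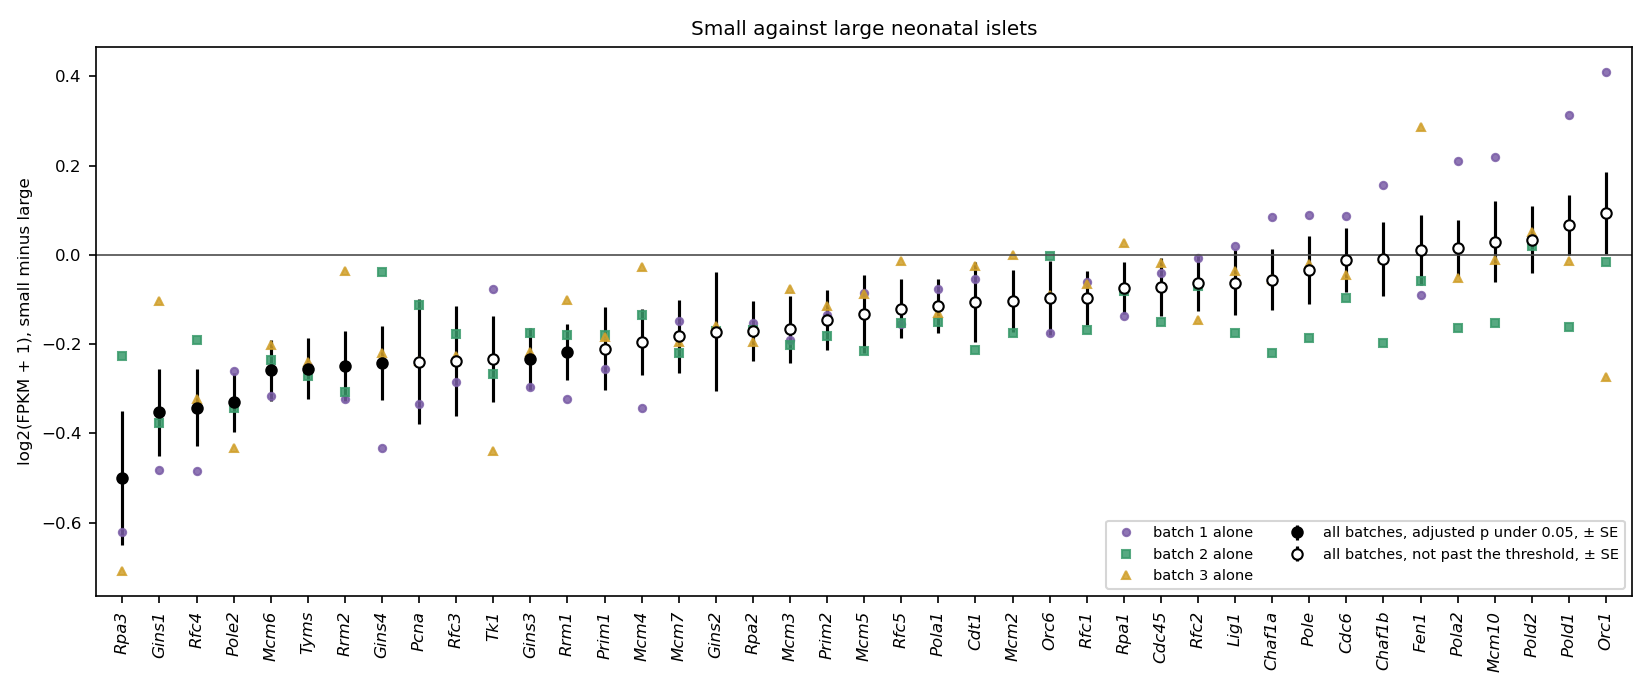
Small minus large difference of each gene on log2(FPKM + 1), over all batches (circles ± SE, filled where the adjusted p is under 0.05) and within batch 1 (violet), 2 (green) and 3 (yellow), ordered by size. Of the 41 genes 35 lie below 0, as do 8001 of all 13402 genes. The 10 filled circles are all negative, while batch 1 alone puts 10 genes above 0, with Orc1 the highest.

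By batch, 31 members were negative in batch 1, 40 in batch 2 and 37 in batch 3. The share of all genes negative in each batch is not given here. The medians over all genes were -0.065, -0.032 and -0.016. In all 3 batches 28 members had the small mean below the large one, which held for 35.5% of all genes. Large 14, a batch 3 library, weighs on that count. Without it 18 members had the small mean below the large one in every batch, beside 30.8% of all genes. Large 14 held the highest neonatal value of 17 members and large 20 that of 11, while small 4 held the lowest neonatal value of 16. Without large 14 the number called lower in small islets was 9, and the number called with age was still 41. The shares of all genes called without it are not given here, so these 2 counts have no background beside them.

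Deviations of large 14 from the mean of its group and batch ran with gene length (Spearman's rho -0.60 across 13402 genes, which share 1 library), and those of large 16 and large 15 ran the other way (0.52 and 0.38). The small minus large difference itself ran weakly with length across all genes (rho 0.23, and 0.23, 0.064 and 0.23 within batches 1, 2 and 3). Across the 41 members the rho over all batches was higher, at 0.48. The 10 members called have a median recovered length of 1942 bases and the 31 others 3088, beside 3308 for all genes kept. With the length trend of each library removed, an alternative chosen after seeing the data, 6 of the 10 were called and none was called higher. The 6 were Mcm6, Gins1, Pole2, Rfc4, Rrm1 and Tyms. The share of all genes called in that fit is not given here, so this count has no background beside it.

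The size comparison also depends on the batch term. With no batch term only Pole2 was called. Batch 1 alone called 14 members, 12 lower and 2 higher (Orc1 and Pold1), beside 37.0% of all genes called in either direction, so the members' share was near that of all genes. By contrast limma on batches 2 and 3 alone called 0 members and 0 of all genes, with 1496 and 556 genes at an unadjusted p under 0.05. Markers of other cell types differed between the sizes as well, where 12.7% of all genes were called lower in small islets and 665 of 13402 higher. Of 10 mesenchymal markers 7 were lower in small islets (summed 202 to 639 FPKM in small and 309 to 1280.2 in large libraries), as were 5 of 8 macrophage markers (43.1 to 70.1 and 48.7 to 91.5 FPKM) and 4 of 6 Schwann cell markers (28.7 to 36.1 and 30.8 to 42.4 FPKM). Lower too were 1 of 10 endothelial, 1 of 7 duct and 1 of 3 erythroid markers, and 2 of 10 β cell markers were higher. Their part in the lower replication genes was not tested.

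Among the listed genes that are not members, those called lower in small islets were 6 of 14 of replication-coupled chromatin, 5 of 18 of nucleotide supply and 4 of 23 of fork and polymerase genes. In licensing and firing 1 of 19 was lower and 1 higher, and in the E2F and pocket list 1 of 18 was lower. These counts stand beside 12.7% of all genes called lower in small islets.

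Batches 2 and 3 both hold adult libraries, so the age difference could be compared between them. The difference differed for 9 of 41 members, where 43.2% of all genes were called in either direction. It was higher in batch 3 for Mcm4, Mcm10, Cdt1, Gins2, Pcna, Rfc3 and Fen1 and lower for Rfc1 and Rpa1. The members' median batch 3 minus batch 2 value was 0.066 beside -0.055 for all genes.

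The gap was also called for some markers of other cell types, beside 43.2% of all genes called in either direction. It was higher for 2 of 3 erythroid markers, which summed to 17.8 to 82.0 FPKM in the adult libraries of batch 2 and 6.87 to 10.9 FPKM in those of batch 3 (neonatal 284 to 573 and 335 to 883 FPKM). It was higher for 3 of 7 duct markers, at 914 to 1030.5 FPKM and 265 to 278 FPKM in adult libraries (neonatal 391 to 545 and 499 to 920.2 FPKM), so the adult libraries of the batches did not overlap on this list. The gap was lower for 4 of 10 β cell markers, at 128852 to 180996 FPKM and 163914 to 166785 FPKM in adult libraries (neonatal 102397 to 139160 and 106636 to 143076 FPKM). Of the α cell and Schwann cell lists 1 marker each had a higher gap, of the macrophage list 1 a lower one and of the endothelial list 1 each way, and no mesenchymal, acinar or lymphocyte marker was called. Their part in the gap of the replication genes was not tested.

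Pcna had the largest of these, 1.14 ± 0.24 (SE, adjusted p = 0.00139), with the lower adult values in batch 3 given above. Gins2 had adult values of 0.577 and 0.614 FPKM in batch 3 and 0.768 to 1.20 FPKM in batch 2, while its neonatal means were 11.0 and 6.61 FPKM. Its age difference was 1.87 in batch 2 and 2.86 in batch 3, a gap of 0.99 ± 0.26 (SE, adjusted p = 0.00578). Mcm10 adult values were 0.152 and 0.200 FPKM in batch 3 and 0.397 to 0.720 FPKM in batch 2, with a gap of 0.63 ± 0.17 (SE, adjusted p = 0.00630). For Cdt1, with adult values of 0.852 and 0.420 FPKM in batch 3 and 0.844 to 1.18 FPKM in batch 2, the gap was 0.67 ± 0.16 (SE, adjusted p = 0.00345). Rfc1 and Rpa1 had higher adult levels in batch 3, as given above, and gaps of -0.51 ± 0.10 (SE, adjusted p = 0.000848) and -0.44 ± 0.088 (SE, adjusted p = 0.000883). The remaining 3 gaps were 0.87 for Rfc3, 0.48 for Fen1 and 0.44 for Mcm4.

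**Figure D4:**
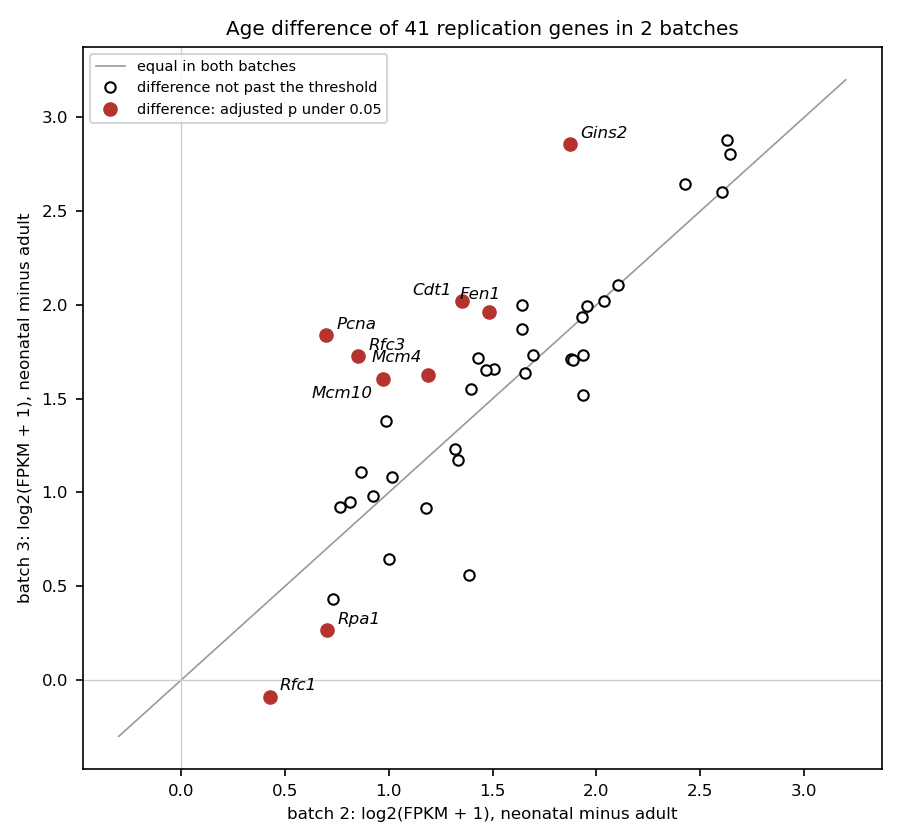
Neonatal minus adult difference on log2(FPKM + 1) of each gene in batch 2 (horizontal) and batch 3 (vertical), with the line of equal values and the 9 genes whose difference between batches passed the threshold in red. All genes but Rfc1 are above 0 in both batches, and Pcna lies farthest above the line, at 0.70 and 1.84.

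The 2 adult libraries of batch 3 were shallower, at 17.3 and 18.5 M fragments, than the 4 of batch 2, at 25.2 to 27.4 M, and the batch gap ran with gene length across all genes (rho -0.32). Without large 14 the gap was called for 11 members (48.4% of all genes), and with the length trend removed for 12 (42.8% of all genes). The fold of neonatal over adult means was at least 2 for 34 members in batch 2 and for 36 in batch 3. The share of all genes past that fold was not computed, so these counts have no background beside them.

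**Figure D5:**
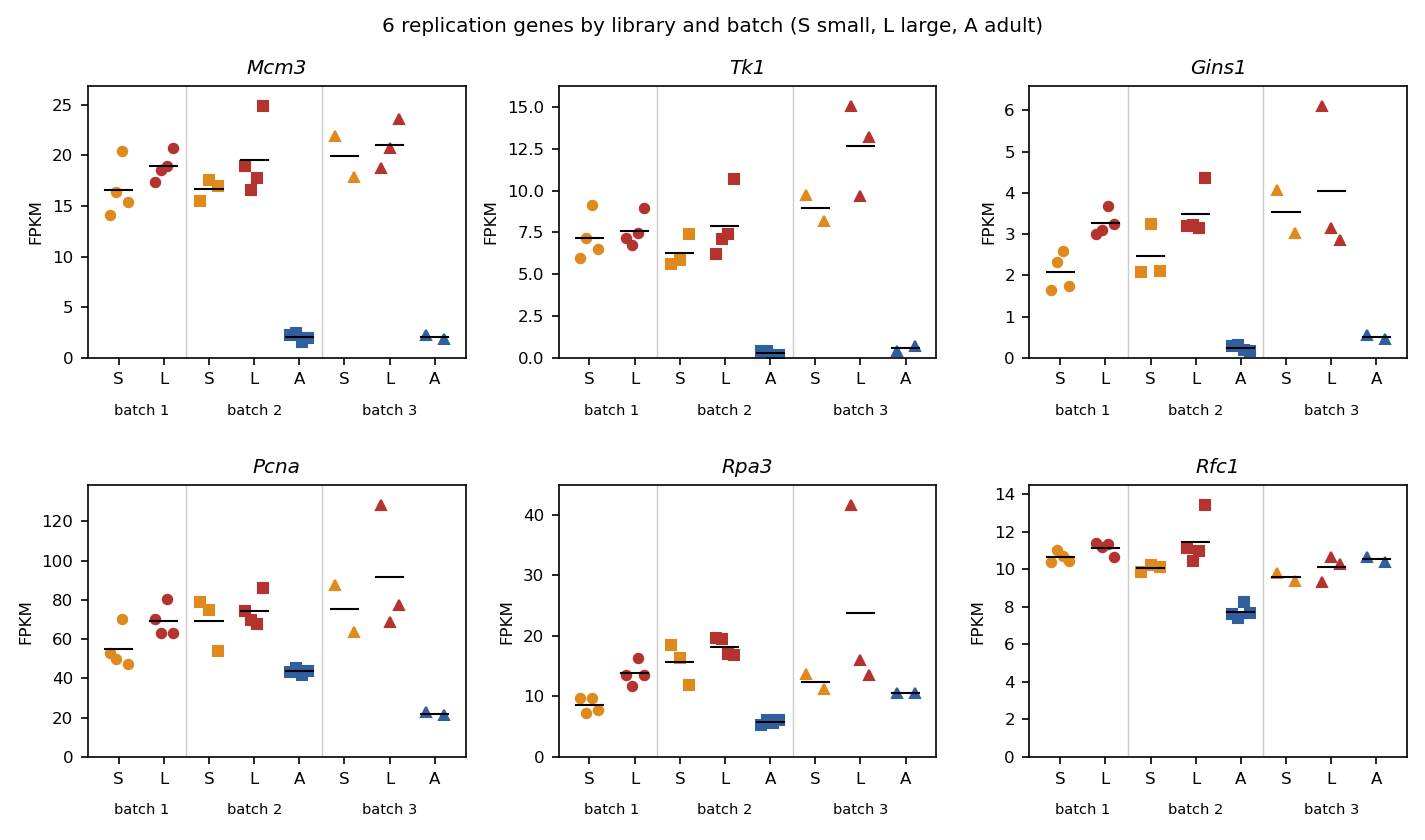
FPKM of 6 genes by library, grouped into small (S), large (L) and adult (A) within batches 1 to 3, with a bar at each mean. Mcm3 and Tk1 keep the ages apart in both batches, Gins1 is lower in small islets in batch 1, Pcna falls to 21.3 and 22.7 FPKM in the adult libraries of batch 3, large 14 stands out at 41.6 FPKM for Rpa3, and Rfc1 overlaps between ages in batch 3.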

How the data were processed

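RNA-seq of 26 islet libraries was deposited as 1 table of FPKM per gene and library, with the authors' log2 fold change, mean log2 count per M, an F score, p-value and FDR for neonatal against adult. The submitters' processing notes name the build mm10 and the tools STAR (2.6a), HTSeq (0.11.1) and edgeR, whose roles, like the annotation and the use of strand, are not given in the sources used here. Libraries were grouped and batches assigned from the labels.

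Of 13641 genes, the 13402 that reached 1 FPKM in 6 or more libraries were kept. Values were fitted as log2(FPKM + 1) with limma 3.58.1 (R 4.3.3, statmod 1.5.0) on group and batch, with trend and robust eBayes, two-sided, adjusted by Benjamini-Hochberg over all genes kept. The age by batch difference used batches 2 and 3. The pseudocount of 1 makes the log2(FPKM + 1) change understate the change of low genes.

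Whole fragment counts were recovered from the deposited FPKM for 100.0% of genes within 0.03 fragments, which gave depth, lengths and a limma voom alternative. The recovery, tested on simulated data, returned 100.0% of counts. Without strand, a gene and an antisense partner cannot be told apart. FPKM is relative to the listed genes, and counting error is smaller for deeper libraries. Promoter windows came from RefSeq (GRCm38.p6) and positions from GENCODE M21. Alternatives were another pseudocount, filters, scalings, variance models, voom, batch handling, blocks and each library left out.

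The 41 genes and the other lists were chosen with earlier results of these data known. Members named with full values are, in each role, those with the largest and smallest age change, up to 6 called between sizes and up to 6 whose age change differed between batches, by p; Orc2, Orc3, Orc5 and Rrm2b were named after their values were seen. Of the other lists, the largest rise and fall (or smallest change) are named.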

Additional observations from a re-analysis of the deposited data

Results flagged for a closer look

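In 82 sets of 1 gene and 1 group (the 9 small or the 6 adult libraries), 4 held a highest library far from the others for the group's range, and chance alone flags about 1 in 20 sets. In small 5, of batch 3, Mcm7 stood at 27.4 FPKM beside 16.3 to 19.1 FPKM in the 8 other small libraries. Rfc2 in small 5 stood at 30.5 FPKM beside 22.7 to 25.3 FPKM, and Rfc5 in small 5 at 16.2 FPKM beside 9.01 to 11.9 FPKM. Small 5 also had the highest summed member level of the small libraries, 620.1 FPKM. It shares its batch and the number in its library name with large 14, which had the highest sum of the large libraries, 743 FPKM. Whether that number marks a shared source is not given in the labels. Pole2 in adult 6 stood at 0.740 FPKM beside 0.447 to 0.537 FPKM in the 5 other adult libraries, a value below that of every neonatal library.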

How the results depend on the processing

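The count of 41 members higher in neonatal islets was 41 with a pseudocount of 0.1, no filter, another variance model, voom, no batch term, batch 2 alone and the length trend removed, and when any library was left out (40 to 41 for small islets alone against adult). It was 40 under the stricter filter, which removes Orc1, and under median-of-ratios and quantile scaling, where Rfc1 was lost, and 37 in batch 3 alone, where Gins4, Rfc1, Rpa1 and Rpa3 were lost. In batch 3 alone Rfc1 turned to -0.089. Those scalings moved the median of all genes from 0.16 to -0.019 and -0.055, and the members' median from 1.53 to 1.38 and 1.16. The mean adult sum of 194.3 FPKM became 217 under median-of-ratios scaling.

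The count of 10 lower in small islets became 6 with voom, 1 with no batch term, 0 in batch 2 alone, 0 in batch 3 alone and 6 with the length trend removed, and 14 in batch 1 alone; the cause was not tested. It ranged from 6 (without small 6) to 11 when each library was left out. Without large 14, chosen after seeing the data, 18 members rather than 28 had the small mean below the large one in every batch. The batch difference count of 9 ranged from 6 (without adult 6) to 11. Where no share of all genes was given for a count in this section, the count has no background beside it.

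The numbers of the libraries were not taken as pairs. Of 7 small and large libraries of 1 batch with the same number in their library name, 6 pairs correlated in their deviations (0.20 to 0.63) and 1 did not (-0.16), and 12 of 14 libraries correlated best with their own number. With that replicate block 14 members were called between sizes, all lower, the 10 and Prim1, Pcna, Rfc3 and Rpa2, while calls over all genes went from 17.6% to 23.3%. Title numbers shared by small and adult libraries (correlations -0.10 to 0.14) gave 40 called in a block on those numbers, with no batch term. Small 1 to small 4 are of batch 1 and adult 1 to adult 4 of batch 2, so age and batch cannot be told apart within those numbers.

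Adult values of Orc1, Gins1 and Tk1 rest on 4 to 17 fragments per library and those of Gins2 on 11 to 34, which limits their fold.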
